A study of Rattus norvegicus with 87 samples.

Results

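Expression of *Calb1* (ENSRNOG00000007456), *Calb2* (ENSRNOG00000016977), *Pvalb* (ENSRNOG00000006471) and *Prkcd* (ENSRNOG00000016346) was followed across rats in RNA-Seq of the lateral habenula (LHb), a small nucleus of the epithalamus. These are 4 of the 17512 genes of the table. They were chosen by name, as the calcium-binding proteins that are widely used to tell neuron classes apart and as a kinase that is abundant in the neighboring thalamus. All samples came from Heterogeneous Stock (HS) rats, an outbred population in which each rat carries its own mixture of founder haplotypes. The rats were adult, housed in groups, and had received no drug or behavioral test. LHb tissue was picked out manually on cryosections, and left and right tissue were combined into one polyadenylated RNA sample, so each sample is a separate animal. The labels divide the rats by sex and by rat batch, and they do not say what a batch shares. Values were available for 41 males and 40 females. There were 11 males with 4 females in batch 2, 10 with 12 in batch 3, 12 with 15 in batch 4 and 8 with 8 in batch 6. A single female made up batch 5, and it was described but left out of the tests.

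Calbindin (*Calb1*), calretinin (*Calb2*) and parvalbumin (*Pvalb*) are EF-hand proteins that bind calcium ions in the cytosol and shape how long a calcium signal lasts after a neuron fires. They tend to occupy different neurons, parvalbumin being typical of fast-spiking cells, while calbindin and calretinin mark several excitatory and inhibitory classes, including neurons of the midline thalamus next to the habenula. Protein kinase C delta (*Prkcd*) is activated by diacylglycerol without needing calcium, and its mRNA is prominent in thalamic relay neurons.

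A level is given as log2(normalized count + 1), in which a normalized count is an estimated read count after the authors' upper quartile adjustment, and a difference of 1 is a doubling of that sum. Scaled totals lay between 16.2 and 20.2 M (M, 1000000 normalized counts). Totals before scaling, recovered for 68 of the 81 rats, ranged from 5.73 to 50.5 M with a median of 18.6 M, and between 296 and 1661 genes were at 0 in a rat. Table columns stood in 3 alphabetical runs of rat identifiers, and these overlapped with batch. Batch 2 was all in run 1, batches 4, 5 and 6 were all in run 3, and batch 3 had 7 rats in run 1, 12 in run 2 and 3 in run 3. The meaning of the runs is not given in the labels. Of 7 LHb markers looked for, 2 carried a symbol in the name list used here, *Pcdh10* and *Plch1*. Both were present in every rat, with at least 870 and 898 normalized counts.

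All 4 genes were detected in every rat. *Calb1* was 10.92 ± 0.26 (SD, n = 81), with a lowest level of 10.26, a median of 10.90 and a highest of 11.58. *Calb2* was 12.86 ± 0.29 (SD, n = 81), from 12.40 through a median of 12.76 to 13.64. *Pvalb* was 8.01 ± 0.45 (SD, n = 81), from 7.08 through 7.98 to 9.12. *Prkcd* spread most, at 9.68 ± 1.05 (SD, n = 81). It ran from 7.59 through a median of 9.52 to 12.18, the highest level being 4626 normalized counts. These levels are not corrected for transcript length, so they are not ranked between genes.

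The size of the spread between rats of the same sex and batch also separated the genes. The residual SD after sex and batch was 0.26 for *Calb1*, 0.20 for *Calb2*, 0.39 for *Pvalb* and 0.73 for *Prkcd*. Of the 2591 genes with a mean level within 0.5 of that of *Prkcd*, 99.7% had a smaller residual SD, and their median was 0.18. For genes near the other 3, the share with a smaller residual SD was 88.3% for *Calb1*, 72.4% for *Calb2* and 90.8% for *Pvalb*. All 4 thus lay in the upper part of the spread at their level, with *Prkcd* near the top.

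**Figure D1:**
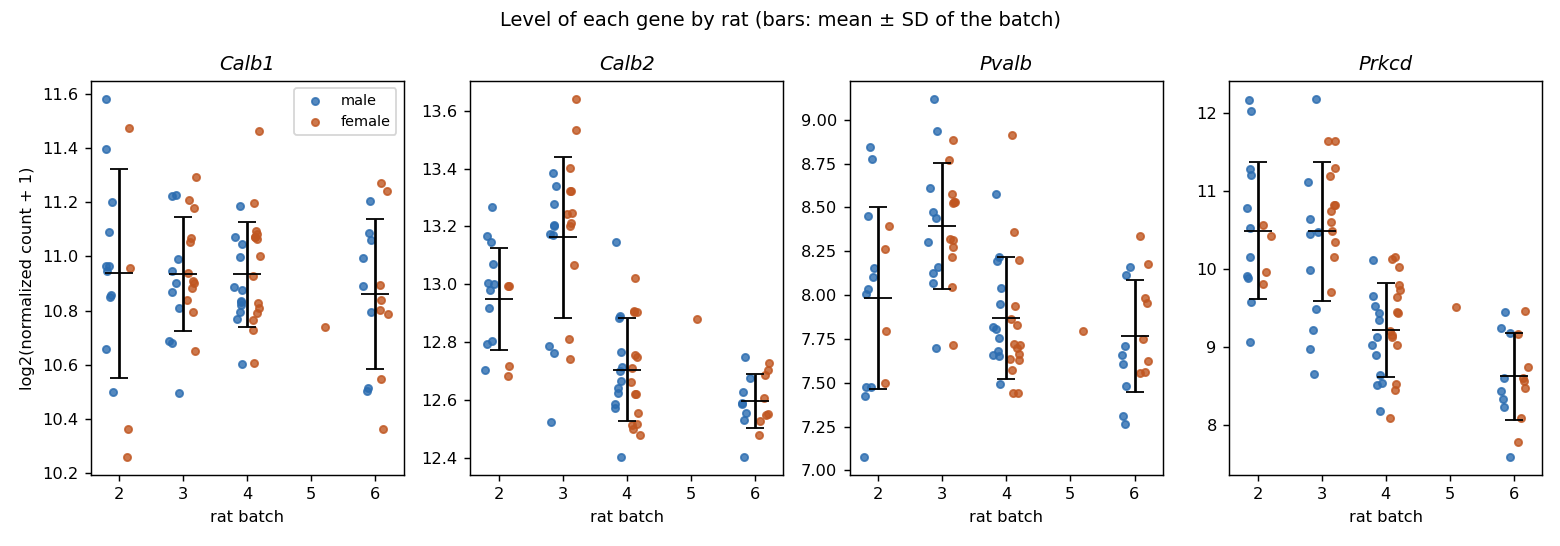
Level of each gene, as log2(normalized count + 1), in every rat by rat batch, with males in blue and females in orange; black bars are the batch mean ± SD, absent for the single rat of batch 5. *Calb1* lies at one height in all batches, while *Prkcd* has batch means of 10.49 and 10.48 in batches 2 and 3 and of 9.22 and 8.62 in batches 4 and 6.

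Whether the sexes differ was asked first. None of the 4 genes passed the test (limma, adjusted for batch, adjusted p of 0.998 for each), where 0.131% of all genes did. Males minus females was -0.01 ± 0.06 (SE) for *Calb1*, -0.02 ± 0.05 for *Calb2*, -0.02 ± 0.09 for *Pvalb* and -0.21 ± 0.16 for *Prkcd*. The 95% confidence intervals were -0.12 to 0.11, -0.11 to 0.07, -0.19 to 0.15 and -0.54 to 0.11, respectively. The interval for *Prkcd* is the widest, and sex differences of up to 0.54 in that gene are inside it. *Prkcd* ranged from 7.59 to 12.18 in males, median 9.45, and from 7.78 to 11.64 in females, median 9.72, so the sexes overlapped over nearly the whole range. Within batches, the male minus female value of *Prkcd* was 0.41, -0.67, -0.25 and 0.02 in batches 2, 3, 4 and 6. Its largest value, -1.0 ± 0.35 (SE) within column run 2, had a limma p of 0.0123 before and of 1.0 after adjustment over all genes. The interaction of sex with batch passed the test for 0 of 17512 genes with limma, 306 of them having an unadjusted p under 0.05, and its smallest unadjusted p among the 4 genes was 0.179, for *Prkcd*.

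Batch separated 3 of the 4 genes, against 65.3% of all genes, so this count is close to that of the table as a whole. *Calb2* (F = 33.3, adjusted p = 2.59e-12), *Prkcd* (F = 31.7, adjusted p = 6.04e-12) and *Pvalb* (F = 10.9, adjusted p = 1.55e-05) differed between batches in limma's F-test adjusted for sex. *Calb1* did not pass it (F = 0.35, adjusted p = 0.815), and its 6 pairwise differences lay between -0.08 and 0.00. Bulk RNA cannot separate fewer cells of a type from less RNA per cell, and this holds for every difference given here.

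*Prkcd* was high in batches 2 and 3 and low in batches 4 and 6. Batch 2 ran from 9.06 through a median of 10.42 to 12.16, and batch 3 from 8.65 through 10.54 to 12.18. Batch 4 ran from 8.09 through 9.21 to 10.15, and batch 6 from 7.59 through 8.59 to 9.46. In normalized counts, the batch medians were 1365, 1491, 591 and 384. Batches 2 and 3 overlapped in part with batch 6, since 14 of 15 rats of batch 2 and 19 of 22 rats of batch 3 lay above the highest rat of batch 6. The difference from batch 2 was -1.33 ± 0.23 (SE, adjusted p = 7e-06) in batch 4 and -1.91 ± 0.26 (adjusted p = 1.43e-08) in batch 6, where 33.9% and 42.4% of all genes passed the test. The difference from batch 3 was -1.26 ± 0.20 (adjusted p = 3.24e-07) in batch 4 and -1.85 ± 0.23 (adjusted p = 4.83e-10) in batch 6, where 54.9% and 59.2% of genes passed. Batches 2 and 3 differed by -0.07 ± 0.24 (adjusted p = 0.901). Batch 6 minus batch 4 was -0.59 ± 0.23, which did not pass in the fit of all batches (adjusted p = 0.0934, 6.04% of genes passing).

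Column run overlaps with this ordering and cannot be fully told apart from batch. When column run was added to the model, batch still passed for *Prkcd* (F = 6.48, adjusted p = 0.00407). In that model, batches 2 and 3 are tied to batches 4 and 6 only through the 3 rats of batch 3 in run 3. These 3 rats had 1404, 1578 and 1550 genes at 0, against a median of 540 over all rats. Differences across that divide therefore rest on them. Of the pairs that had passed, batch 4 minus 2 (-0.26, adjusted p = 0.765), batch 6 minus 2 (-0.85, 0.222) and batch 4 minus 3 (-0.90, 0.0967) no longer did. Batch 6 minus batch 3, which had also passed, is not listed for this model, so its call there is not given. Nor are the pairs that had not passed. Comparisons inside a run avoid that overlap. Within run 3, batch 6 minus batch 4 was -0.59 ± 0.18 (SE, adjusted p = 0.0306), where 10% of all genes passed. That call did not hold when the count of genes at 0 entered the model (-0.51, adjusted p = 0.159). Within run 1, batch 3 minus batch 2 was 0.92 ± 0.37 (adjusted p = 0.533), in a comparison where limma called 0 genes and 1507 had an unadjusted p under 0.05. Within batch 3, run 2 minus run 1 was -0.93 ± 0.34 (adjusted p = 0.0501), at a background of 23%.

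The batch medians of *Calb2*, and also those of *Pvalb*, stood in the same order as those of *Prkcd*. For *Prkcd*, the order of batches 2 and 3 carries little weight, as their means were 10.49 and 10.48. *Calb2* was highest in batch 3, at 12.53 through a median of 13.21 to 13.64, and then in batch 2, at 12.68 through 12.99 to 13.27. Batch 4 ran from 12.40 through 12.67 to 13.15 and batch 6 from 12.41 through 12.59 to 12.75. Of the 22 rats of batch 3, 20 lay above every rat of batch 6. Batch 4 was lower than batch 2 (-0.25 ± 0.06, adjusted p = 0.00164) and than batch 3 (-0.46 ± 0.06, adjusted p = 5.26e-10), and batch 6 was lower than both (-0.36 ± 0.07, adjusted p = 3.65e-05, and -0.56 ± 0.06, adjusted p = 3.18e-11). Batch 6 minus batch 4 was -0.11 ± 0.06 (adjusted p = 0.275). Batch 3 exceeded batch 2 by 0.21 ± 0.07 (adjusted p = 0.042), where 7.44% of genes passed. That difference was -0.02 (adjusted p = 0.972) when column run was added to the model and -0.02 ± 0.12 inside run 1. Inside batch 3, run 2 exceeded run 1 by 0.36 ± 0.09 (adjusted p = 0.0118). The 12 rats of run 2 sat between 13.17 and 13.40, while the 7 rats of run 1 spread from 12.53 to 13.53. The difference between the runs did not pass when the count of genes at 0 entered the model (0.35, adjusted p = 0.0699).

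*Pvalb* was highest in batch 3. Batch 3 ran from 7.70 through a median of 8.38 to 9.12. Batch 2 ran from 7.08 through 8.03 to 8.84, batch 4 from 7.44 through 7.75 to 8.92, and batch 6 from 7.27 through 7.68 to 8.34. Batch 4 minus batch 3 was -0.52 ± 0.11 (SE, adjusted p = 3.45e-05) and batch 6 minus batch 3 was -0.63 ± 0.12 (adjusted p = 1.25e-05), and batch 3 exceeded batch 2 by 0.40 ± 0.13 (adjusted p = 0.0413). The other pairs had differences between -0.10 and -0.22 and did not pass. Batch no longer separated *Pvalb* when column run was added to the model (F = 1.99, adjusted p = 0.215) or without batch 3 (F = 1.29, adjusted p = 0.367). The model with column run carries the limit given above for *Prkcd*. For both *Calb2* and *Pvalb*, the call between batches 3 and 2 lay close to the threshold. It was lost without batch 4 (adjusted p = 0.0600 and 0.0582), without batch 6 (0.0820 and 0.0570), without the rats with over 1000 genes at 0 (0.0822 and 0.0609), and when the count of genes at 0 entered the model (0.305 and 0.207).

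**Figure D2:**
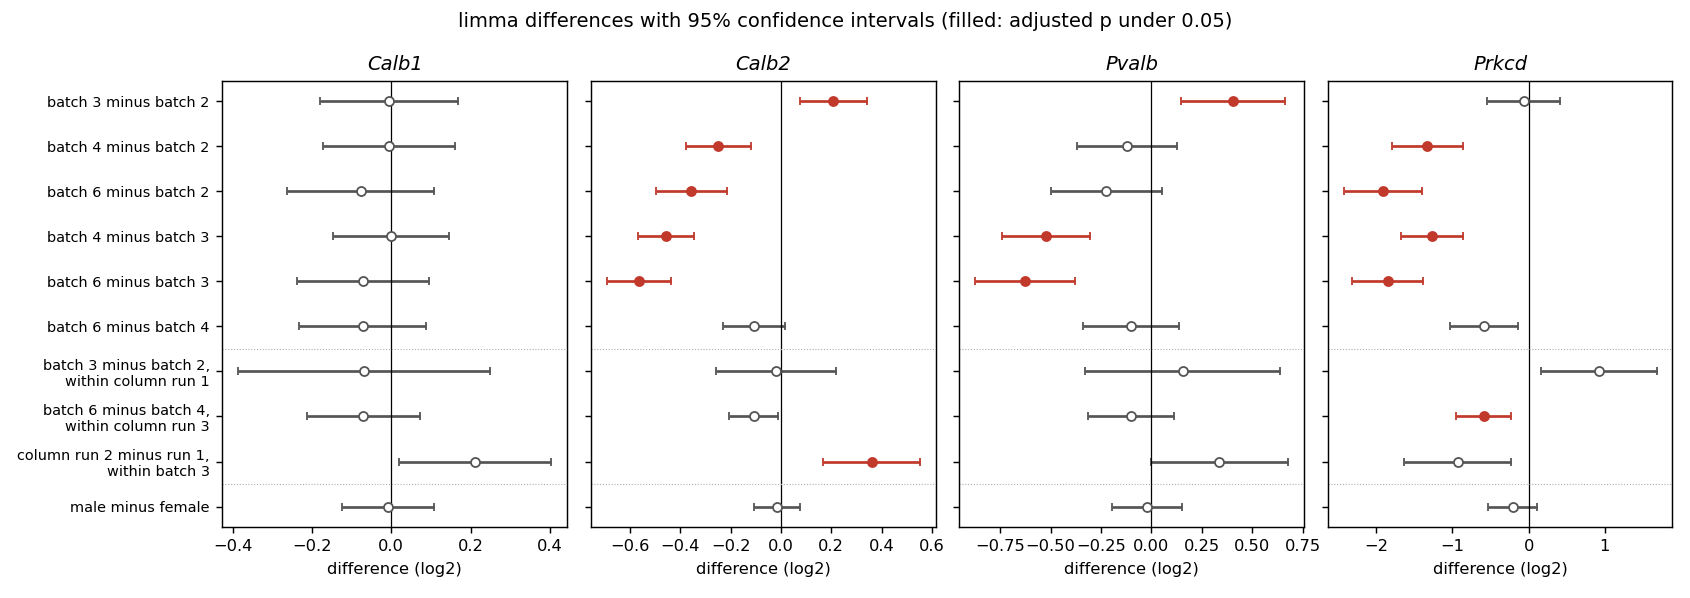
Difference on the log2 scale (horizontal axis) with its 95% confidence interval for each gene in the pairwise batch contrasts, the contrasts inside a column run or inside batch 3, and males minus females; filled red points have a limma adjusted p under 0.05. *Calb1* has no filled point, and the largest differences are those of *Prkcd*, -1.91 for batch 6 minus batch 2.

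Markers of the thalamus varied with *Prkcd*. Of 11 listed markers of thalamic excitatory neurons, 2 could be identified by symbol, *Ptpn3*, a protein tyrosine phosphatase, and *Ntng1*, which encodes the axon guidance protein netrin-G1. Neither was at 0 in any rat. Their summed level was 1467 to 6043 normalized counts in batch 2 (median 2198), 1061 to 5751 in batch 3 (median 2308), 820 to 2120 in batch 4 (median 1312) and 783 to 1670 in batch 6 (median 1178). These medians stood in the order of the batch medians of *Prkcd*. In the model, however, batch 3 minus batch 2 had a median difference of -0.16 over these 2 genes, and neither passed. Batch 4 minus batch 3 was -0.87 ± 0.16 (SE) for *Ptpn3* (adjusted p = 3.4e-06) and -0.60 ± 0.12 for *Ntng1* (adjusted p = 2.69e-05). Inside batch 3, run 2 minus run 1 was -0.93 ± 0.22 for *Ptpn3* (adjusted p = 0.00893) and -0.66 ± 0.18 for *Ntng1* (adjusted p = 0.0142). The mean of these 2 genes was also added to the model as a covariate, an alternative chosen after seeing the data. Batch 4 minus batch 2 in *Prkcd* was then -0.10 (limma, adjusted p = 0.487), and -1.33 without the covariate. Batch 6 minus batch 4 was -0.37 (adjusted p = 0.00826) with it. In these contrasts of that model, 38.1% and 10.1% of all genes passed. Batch as a whole still passed for *Prkcd* (F = 11.9, adjusted p = 6.79e-06), as for 63.3% of all genes. The remaining batch pairs are not listed for the model with this covariate. Because these 2 genes vary closely with *Prkcd* in the same libraries, a smaller difference with the covariate does not tell its cause, which was not tested.

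Among rats of the same sex and batch, *Prkcd* and the mean of the 2 thalamic markers ran together closely. Pearson's r was 0.93 and Spearman's rho 0.92 (permutation p = 1e-05 for each, the smallest that 100000 permutations can give, adjusted p = 7.33e-05 and 0.000147 over 44 pairs of gene and marker list, n = 80). Without the 2 rats farthest from the median, r was 0.91. It was 0.98, 0.90, 0.87 and 0.96 within batches 2, 3, 4 and 6, and 0.97, 0.82 and 0.90 within column runs 1, 2 and 3. The relation thus appeared in each split of the rats. Genes and marker lists were chosen with earlier results of these data known, and the permutation p values carry that limit. *Prkcd* also varied with *Hcrtr1*, the hypocretin receptor gene that was the only identified one of 7 midline thalamic markers and reached at most 74 normalized counts (r = 0.33, rho = 0.39, permutation test, adjusted p = 0.0103 and 0.00226, 0.32 without the 2 farthest rats). That value was 0.76 within batch 2, -0.09 within batch 3, 0.32 within batch 4 and 0.35 within batch 6.

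The genes whose values were most like those of *Prkcd* were sought among 13359 genes with a mean level of at least 5, of which 2773 had a symbol, on residuals after sex, batch and column run. Of those with a symbol, the 5 most alike were *Ptpn3* (r = 0.92), *Gabrd* (0.91), *Ntng1* (0.88), *Cacna2d3* (0.87) and *Nsmf* (0.84), over 80 rats. The highest r over all 13359 genes was 0.93, for a gene without a symbol. *Gabrd* encodes the delta subunit of extrasynaptic GABA-A receptors, *Cacna2d3* an auxiliary subunit of voltage-gated calcium channels, and *Nsmf* a factor that signals from NMDA receptors to the nucleus. Within column runs 1, 2 and 3, r was 0.97, 0.83 and 0.88 for *Ptpn3* and 0.98, 0.91 and 0.88 for *Gabrd*. At the other end of the genes with a symbol stood *Sytl2* (r = -0.58), a synaptotagmin-like protein gene, and *Itfg2* (-0.54). The lowest r over all 13359 genes was -0.65. These r values describe shared variation between rats of the same libraries and carry no test.

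The rats at both ends of the *Prkcd* range, which also entered these r values, are given singly. Male rat 14 of batch 3 had the highest *Prkcd* of all 81 rats, 4626 normalized counts, and ranked second from the top in *Ptpn3* (3884), *Gabrd* (777) and *Ntng1* (1867). Male rat 42 of batch 2, second in *Prkcd* with 4583, ranked first in all 3, with 3926, 887 and 2117. At the bottom, male rat 36 of batch 6 had the lowest *Prkcd* of all, a level of 7.59, with 378 normalized counts of *Ptpn3*, 19 of *Gabrd* and 405 of *Ntng1*. Female rat 8 of batch 6, second lowest in *Prkcd* with 219, had 366 of *Ptpn3*, 16 of *Gabrd* and 491 of *Ntng1*. Her *Ntng1* ranked only 70 of 81 from the top. Across all rats *Gabrd* spread over 3.91 to 9.79, a wider range than that of *Prkcd*.

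**Figure D3:**
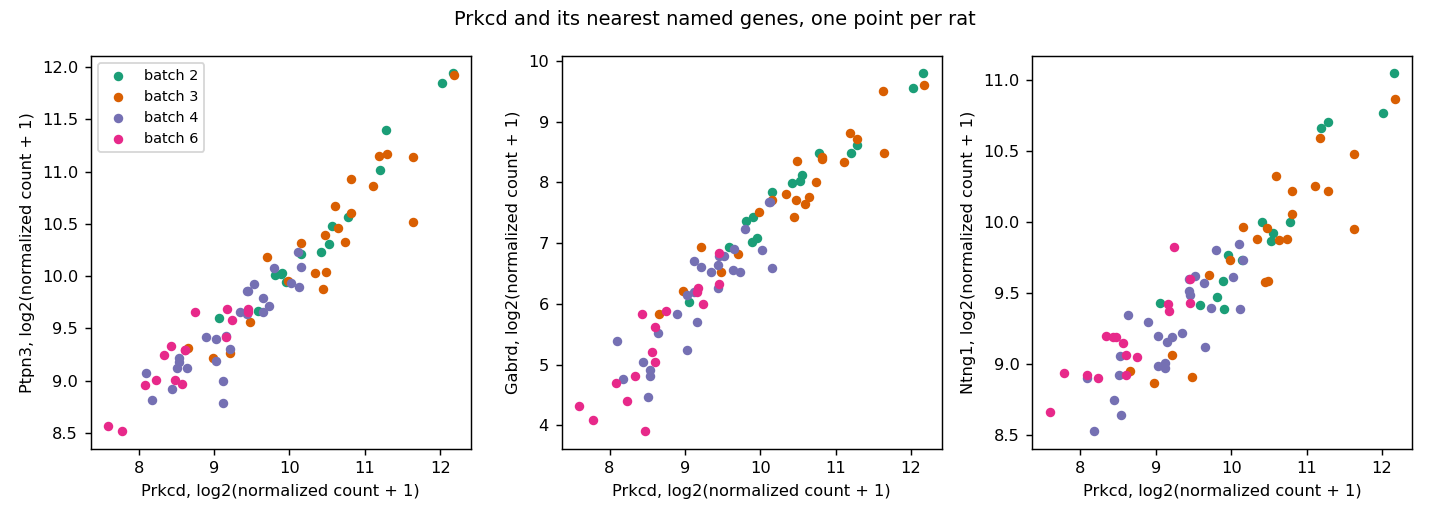
Level of *Ptpn3*, *Gabrd* and *Ntng1* (vertical axes) against that of *Prkcd* (horizontal axis), all as log2(normalized count + 1), with 1 point per rat for 80 rats colored by batch. The points lie along a rising band in each panel, with batch 6 at the lower left and the highest rats, of batches 2 and 3, at the upper right.

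The promoters of these genes are shown because the genes vary together. They are the 250 bases before the start site on the strand of the gene, from RefSeq, build GRCr8. The window lies on the minus strand in each case, at chr16:5805840-5806089 for *Prkcd*, chr5:76821222-76821471 for *Ptpn3*, chr5:171252710-171252959 for *Gabrd*, chr2:200515032-200515281 for *Ntng1*, and chr7:111666290-111666539 for *Pvalb*, shown for comparison. Capitals mark matches to 6 motifs searched on both strands. These were TATAA (a core promoter box), CCAAT (bound by NF-Y), GGGCGG (the GC box), CANNTG (the E-box), TGACG (the core of CREB sites) and CTTTGA (bound by TCF and LEF factors).
Prkcd: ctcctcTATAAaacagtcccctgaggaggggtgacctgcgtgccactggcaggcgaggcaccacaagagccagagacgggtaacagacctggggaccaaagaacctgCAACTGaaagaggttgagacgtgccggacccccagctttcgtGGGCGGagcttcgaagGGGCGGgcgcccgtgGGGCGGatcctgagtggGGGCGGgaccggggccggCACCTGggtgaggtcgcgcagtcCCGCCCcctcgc
Ptpn3: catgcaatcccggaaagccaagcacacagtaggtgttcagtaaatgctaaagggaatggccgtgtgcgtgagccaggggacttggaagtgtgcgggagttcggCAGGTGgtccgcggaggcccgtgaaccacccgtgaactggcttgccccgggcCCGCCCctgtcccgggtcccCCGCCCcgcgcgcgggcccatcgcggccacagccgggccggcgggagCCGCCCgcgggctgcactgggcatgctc
Gabrd: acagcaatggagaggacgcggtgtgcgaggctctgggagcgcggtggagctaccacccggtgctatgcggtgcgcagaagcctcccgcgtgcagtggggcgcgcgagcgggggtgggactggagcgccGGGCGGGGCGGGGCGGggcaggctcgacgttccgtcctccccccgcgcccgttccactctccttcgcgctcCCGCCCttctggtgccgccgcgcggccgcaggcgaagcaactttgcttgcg
Ntng1: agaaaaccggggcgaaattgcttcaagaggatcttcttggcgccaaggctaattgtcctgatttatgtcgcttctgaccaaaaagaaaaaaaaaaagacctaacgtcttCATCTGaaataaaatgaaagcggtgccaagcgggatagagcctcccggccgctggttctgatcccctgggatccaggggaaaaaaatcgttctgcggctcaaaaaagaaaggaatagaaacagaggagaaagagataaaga
Pvalb: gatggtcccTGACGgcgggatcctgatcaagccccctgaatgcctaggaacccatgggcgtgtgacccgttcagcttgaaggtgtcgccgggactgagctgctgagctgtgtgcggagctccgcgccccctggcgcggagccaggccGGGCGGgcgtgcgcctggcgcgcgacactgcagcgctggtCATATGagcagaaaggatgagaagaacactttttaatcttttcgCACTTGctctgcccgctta
GGGCGG had 5 matches in the *Prkcd* window, at -101, -85, -70, -53 and -12 relative to the start, 3 in *Ptpn3*, 4 in *Gabrd*, 1 in *Pvalb* and 0 in *Ntng1*. In *Gabrd*, 3 of the 4 stand in a row, each sharing a base with the next. Over 33469 promoter windows of the same length, 30.5% held at least 1 match. CANNTG was found in 4 of the 5 windows and in 65.5% of all windows. TATAA was found in *Prkcd* alone, against 24% of all windows. Its match, at -244, lies near the end of the window farthest from the start site. TGACG occurred in *Pvalb* alone (18.2% of all windows), and CCAAT (34%) and CTTTGA (13.9%) in none of the 5. GC content was 67.6% in *Prkcd*, 70.4% in *Ptpn3*, 74.0% in *Gabrd*, 44.8% in *Ntng1* and 62.8% in *Pvalb*, where the median window had 51.2%. None of the 6 motifs was present in all 4 windows of the genes that varied together.

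Relations between the 4 genes themselves were weaker. Of 6 pairs, 3 passed the permutation test on residuals after sex and batch. *Calb2* and *Pvalb* varied in the same direction (r = 0.37, rho = 0.35, permutation test, adjusted p = 0.00528 and 0.0101, n = 80), and r was 0.39 without the 2 farthest rats. Within batches 2, 3, 4 and 6 it was -0.07, 0.65, 0.52 and 0.21. Without batch 3 the pair did not pass (r = 0.25, adjusted p = 0.107). *Pvalb* and *Prkcd* varied in opposite directions (r = -0.33, rho = -0.31, permutation test, adjusted p = 0.00708 and 0.0143), with -0.36 without the 2 farthest rats. Their r was negative in every split, at -0.48, -0.32, -0.21 and -0.30 within batches 2, 3, 4 and 6, and -0.30, -0.28 and -0.24 within the column runs. Without batch 2 it was -0.28 (adjusted p = 0.0700). *Calb1* and *Pvalb* also had a negative r (-0.30, permutation test, adjusted p = 0.0123), but rho was -0.22 (adjusted p = 0.103) and r without the 2 farthest rats was -0.22. It was -0.72 within batch 2, 0.14, -0.22 and -0.10 within batches 3, 4 and 6, and -0.08 without batch 2 (adjusted p = 0.534), so it rests on the 15 rats of batch 2. *Calb1* with *Calb2* (r = 0.18, adjusted p = 0.161), *Calb1* with *Prkcd* (0.10, 0.436) and *Calb2* with *Prkcd* (-0.04, 0.70) did not pass.

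**Figure D4:**
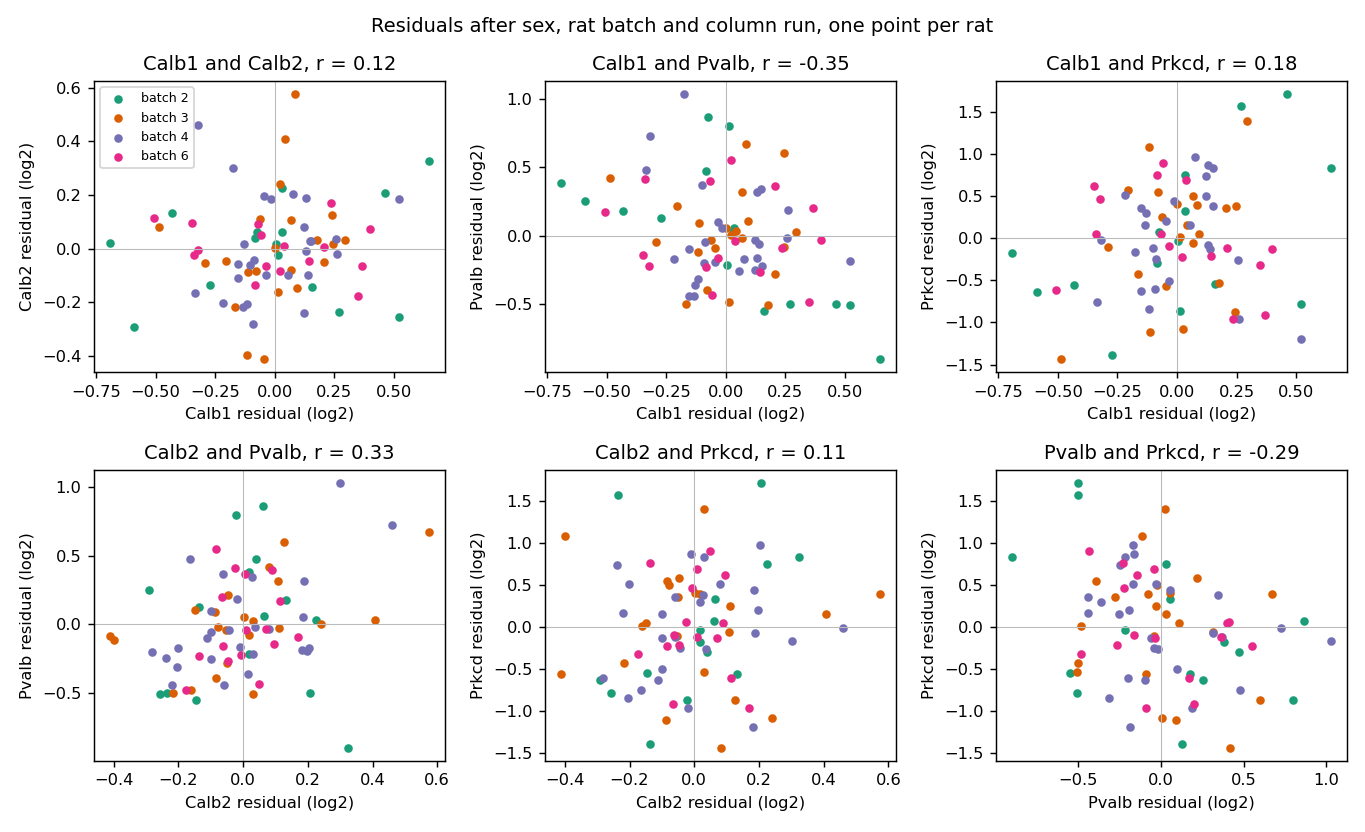
Residual log2 levels after sex, rat batch and column run for the 6 pairs of the 4 genes, with 1 point per rat for 80 rats colored by batch and Pearson's r above each panel. *Calb2* rises with *Pvalb* (r = 0.33), *Pvalb* falls with *Calb1* (-0.35) and with *Prkcd* (-0.29), and the other pairs form clouds without a clear slope.

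Among rats of the same sex and batch, *Calb1* followed markers of the medial habenula, the nucleus next to the LHb. Of 12 listed markers, 4 were identified, *Chrnb4* (a nicotinic receptor subunit), *Chat* (choline acetyltransferase), *Lrrc55* and *Wif1*, none at 0 in any rat. Their summed level was 1657 to 6841 normalized counts in batch 2, 1952 to 3969 in batch 3, 2027 to 7307 in batch 4 and 3463 to 7396 in batch 6. Between batches *Calb1* did not follow them. Its mean was 10.93 in batches 3 and 4, while all 4 markers were higher in batch 4 (median difference 0.55), as were 28.6% of all genes. Within sex and batch, *Calb1* rose with the mean of the 4 markers (r = 0.40, rho = 0.32, permutation test, adjusted p = 0.00181 and 0.0156, 0.35 without the 2 farthest rats), and r was 0.49, 0.52, 0.34 and 0.37 within batches 2, 3, 4 and 6. *Calb1* fell with the 4 identified of 8 fast-spiking neuron markers (r = -0.50, rho = -0.44, adjusted p = 7.33e-05 and 0.000704, permutation test), with -0.44 without the 2 farthest rats and -0.66, -0.53, -0.34 and -0.38 within batches. Values of r for single genes, here and in what follows, are on residuals after sex, batch and column run, while those for marker lists, also lists with 1 identified gene, leave column run in. Of the 4 genes, *Kcns3*, a modulatory potassium channel subunit, had r = -0.56 and *Syt2*, a synaptic calcium sensor, -0.48, while *Kcnc2*, the Kv3.2 potassium channel, had 0.03. With the 2 identified oligodendrocyte markers, *Mal* and *Opalin*, r was -0.33 (permutation test, adjusted p = 0.0106), but rho was -0.20 (adjusted p = 0.184). That r was -0.25 without the 2 farthest rats and -0.49, -0.10, -0.10 and -0.50 within batches 2, 3, 4 and 6. Of the genes with a symbol, those most like *Calb1* were *Zic4* (r = 0.58), a zinc finger factor, *Tspan13* (0.56), *Syt6* (0.53), *Cpne9* (0.49) and *Zmat4* (0.48). The least like were *Kcns3* (-0.56) and *Osbpl1a* (-0.54). Over all 13359 genes, r with *Calb1* ran from -0.59 to 0.64. Within column runs 1, 2 and 3, r with *Zic4* was 0.67, 0.81 and 0.47.

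*Pvalb* showed the reverse of *Calb1* for both of these lists. It fell with the medial habenula markers (r = -0.51, rho = -0.44, permutation test, adjusted p = 7.33e-05 and 0.00055, -0.43 without the 2 farthest rats), at -0.58, -0.29, -0.72 and -0.16 within batches 2, 3, 4 and 6. It rose with its fast-spiking companions (r = 0.34, rho = 0.41, adjusted p = 0.0103 and 0.00154, 0.34 without the 2 farthest rats), at 0.57, 0.54 and 0.62 within batches 2, 4 and 6 but -0.27 within batch 3. *Kcns3* (r = 0.60) and *Hapln1*, a perineuronal net link protein gene (0.42), led that list, and *Kcnc2* had -0.16. *Pvalb* also fell with the thalamic markers (r = -0.42, rho = -0.38, adjusted p = 0.000754 and 0.00254, -0.42 without the 2 farthest rats), at -0.54, -0.42, -0.40 and -0.22 within batches, and rose with the oligodendrocyte markers (r = 0.33, rho = 0.30, adjusted p = 0.013 and 0.0302, 0.31 without the 2 farthest rats), at 0.31, 0.12, 0.57 and 0.26. Its r with the 2 LHb markers was -0.31 (adjusted p = 0.0167), with rho of -0.23 (adjusted p = 0.130). It was -0.26 without the 2 farthest rats and -0.28, -0.47, -0.25 and -0.07 within batches 2, 3, 4 and 6. *Slc32a1*, the vesicular GABA transporter and the only identified one of 8 GABA neuron markers, had 19 to 220 normalized counts and r of -0.03 with *Pvalb* (adjusted p = 0.813).

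*Calb2* and *Pvalb* both varied with the general neuron markers. Both also followed the strongest axis of residual variation over all genes (absolute r of 0.70 and 0.55). Of 8 such markers 2 were identified, *Eno2*, the neuronal enolase, and *Stmn2*, a regulator of microtubules, with summed levels of 18384 to 24038 normalized counts in batch 2, 20951 to 28058 in batch 3, 19008 to 23822 in batch 4 and 18877 to 22610 in batch 6. Their mean rose with *Calb2* (r = 0.64, rho = 0.59, permutation test, adjusted p = 7.33e-05 and 0.000147, 0.64 without the 2 farthest rats), at 0.43, 0.77, 0.67 and 0.31 within batches 2, 3, 4 and 6. It rose with *Pvalb* (r = 0.60, rho = 0.56, adjusted p = 7.33e-05 and 0.000147, 0.56 without the 2 farthest rats), at 0.65, 0.73, 0.74 and 0.09. *Calb2* fell with the 2 LHb markers (r = -0.48, rho = -0.38, adjusted p = 7.33e-05 and 0.00254, -0.42 without the 2 farthest rats), at -0.35, -0.62 and -0.41 within batches 2, 3 and 4 and 0.13 within batch 6. *Plch1*, a phospholipase C, had r of -0.57 with *Calb2*, and *Pcdh10*, a protocadherin, -0.24. *Calb2* rose with *Hcrtr1* (r = 0.29, adjusted p = 0.0283), though rho did not pass (0.27, adjusted p = 0.0562). That r was 0.28 without the 2 farthest rats and 0.56, 0.22, 0.36 and 0.13 within batches 2, 3, 4 and 6. Of the 44 pairs of gene and marker list, those not named here did not pass on r. They include all pairs with the choroid plexus, astrocyte and GABA neuron lists and with the dentate granule list, which had r of 0.26 with *Prkcd* (adjusted p = 0.0510, rho = 0.33 with an adjusted p of 0.0135). The parts of tissue makeup and of variation shared by many genes in these relations were not tested.

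The number of genes that resembled each of the 4 also varied. The share of the 13359 genes with r above 0.5 or below -0.5 was 0.150% for *Calb1*, 1.60% for *Prkcd*, 10.2% for *Pvalb* and 16% for *Calb2*. The strongest axis of residual variation over all genes, which held 7.62% of the variance, had an absolute r of 0.70 with *Calb2* and 0.55 with *Pvalb*, against 0.10 with *Prkcd* and 0.02 with *Calb1*. The scaled total of a library had r of 0.46 with *Calb2* and 0.45 with *Pvalb*, of -0.11 with *Calb1* and of 0.00 with *Prkcd*. Of the genes with a symbol, those most like *Calb2* were *Bad* (r = 0.73), a member of the Bcl-2 family, *Pithd1* (0.73), *Commd7* (0.71), *Txn2* (0.71), the mitochondrial thioredoxin, and *Stmn3* (0.71). The least like were *Iars1* (-0.71), an aminoacyl-tRNA synthetase, and *Kmt2e* (-0.71). Over all 13359 genes, r with *Calb2* ran from -0.74 to 0.76. Genes with a symbol most like *Pvalb* included *Cend1* (0.66), *Glrx3* (0.65), *Atp5f1b* (0.64), the beta subunit of mitochondrial ATP synthase, and *Alkbh3* (0.64), with *Dlgap1* (-0.67), a postsynaptic scaffold, and *Pacs1* (-0.66) at the other end. Over all 13359 genes, r with *Pvalb* ran from -0.68 to 0.73, and 11 genes without a symbol stood ahead of *Cend1*. *Ptpn3* had r of 0.01 with *Calb2*.

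Other calcium-binding and calcium-handling genes were followed in lists chosen by function. Of 32 other EF-hand genes, 10 had a symbol in the name list, and 7 of these differed between batches, near the 65.3% of all genes that did. None differed by sex. From batch 3 to batch 4, 4 of the 10 were lower and 0 higher, with a median difference of -0.13 against 0.02 over all genes, of which 26.2% were lower and 28.6% higher. *S100a16*, a small S100 protein gene, was lower by the most (-0.65 ± 0.10, adjusted p = 7.57e-08), followed by *Calm2* (-0.19 ± 0.05, adjusted p = 0.000313), one of the calmodulin genes, *Ncs1* (-0.17 ± 0.04, adjusted p = 5.91e-05), neuronal calcium sensor, and *Ncald* (-0.10 ± 0.04, adjusted p = 0.0346), neurocalcin delta. Among rats, *Calm2* (r = 0.57) and *S100a16* (0.56) ran with *Calb2*, and *S100a16* (0.52) and *Calm2* (0.45) with *Pvalb*. Such values were common, since 16% of all 13359 genes had r above 0.5 or below -0.5 with *Calb2* and 10.2% with *Pvalb*. *Necab1*, a neuronal EF-hand protein gene, had r = 0.82 with *Prkcd*, and its relative *Necab3* had 0.43 with *Calb1*. *Necab1* did not pass from batch 3 to batch 4 (-0.22 ± 0.16, adjusted p = 0.229), though inside batch 3 run 2 was lower than run 1 (-0.74 ± 0.17, adjusted p = 0.00793).

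Of 18 other genes of the protein kinase C family, its activators and substrates, 7 were identified. From batch 3 to batch 4, 3 were lower and 2 higher, and 5 of the 7 differed in the F-test over batches. Over all genes 26.2% were lower, 28.6% higher and 65.3% different between batches, so these shares are near those of the table. The median difference of the list was 0.07, against 0.02 over all genes. The lower ones were *Prkch* (-0.41 ± 0.10, adjusted p = 0.000281), the eta isoform, *Marcksl1* (-0.30 ± 0.05, adjusted p = 8.88e-07), a relative of the MARCKS substrate, and *Prkcz* (-0.16 ± 0.03, adjusted p = 2.24e-05), the atypical zeta isoform. The higher ones were *Prkd1* (0.24 ± 0.07, adjusted p = 0.00145), protein kinase D, and *Plcb1* (0.24 ± 0.10, adjusted p = 0.0383), a phospholipase C. Of the kinases, 2 ran with *Prkcd* among rats, namely *Prkch* (r = 0.69) and *Prkcz* (0.54), as did *Plcb4* (0.53), another phospholipase C, while *Prkd1* had -0.36. Over the 7 genes, r with *Prkcd* thus ran from -0.36 to 0.69.

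Of 17 calcium pumps, exchangers and mitochondrial uptake genes, 5 were identified. From batch 3 to batch 4 only *Slc24a2*, a potassium-dependent sodium/calcium exchanger, passed among them, being higher by 0.48 ± 0.10 (adjusted p = 2.96e-05), where 54.9% of all genes passed and 28.6% were higher. Inside batch 3, from run 1 to run 2, 3 of the 5 were lower, where 11.3% of all genes were, namely *Slc24a2* (-0.78 ± 0.16, adjusted p = 0.00499), *Atp2b2* (-0.41 ± 0.07, adjusted p = 0.00353), a plasma membrane calcium pump, and *Slc8a2* (-0.39 ± 0.12, adjusted p = 0.0235), a sodium/calcium exchanger. This contrast called 4020 genes, but 819 when the count of genes at 0 entered the model. Genes of the lists, also *Ptpn3*, *Ntng1* and *Necab1*, were not followed in that model. Across rats, *Atp2b2* (r = -0.56) and *Slc24a2* (-0.55) ran against *Calb2*, and *Slc8a2* ran with *Prkcd* (0.52). Of all 13359 genes, 16% had r above 0.5 or below -0.5 with *Calb2*, and 1.60% with *Prkcd*. Over the 5 genes, r with *Prkcd* ran from -0.05 to 0.52.

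**Figure D5:**
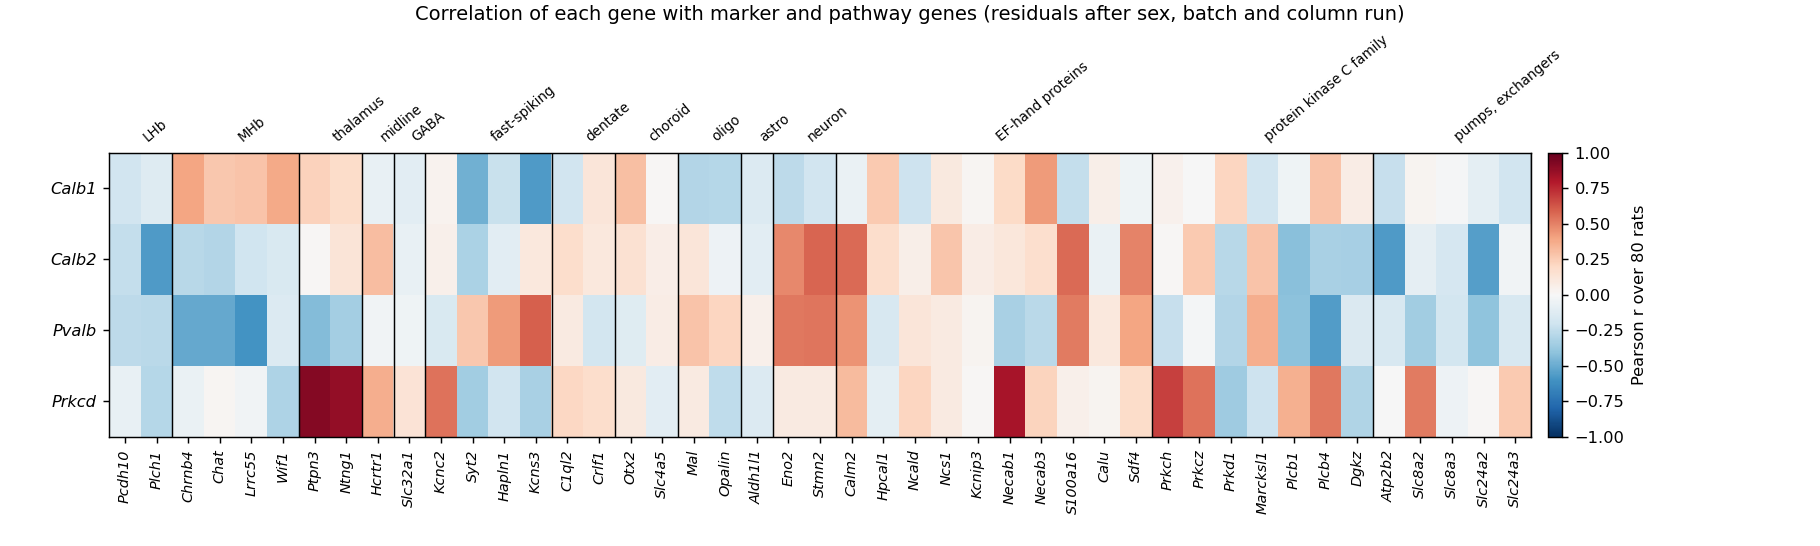
Pearson r over 80 rats between each of the 4 genes (rows) and each identified marker or pathway gene (columns, grouped by list), on residuals after sex, batch and column run, with red for positive and blue for negative r. The darkest cells are those of *Prkcd* with *Ptpn3* (0.92), *Ntng1* (0.88) and *Necab1* (0.82).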

How the data were processed

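RNA was measured by single-end RNA-Seq in hand-dissected LHb. According to the methods, the authors trimmed reads with cutadapt, obtained estimated gene counts from RSEM on Ensembl transcripts (Rnor_6.0 in the submitters' processing notes), adjusted them to a common upper quartile with DESeq2 and removed genes with few reads. Tool versions are not given in the sources used here. The deposited values are log2 of these adjusted counts after a pseudocount of 1. Raising 2 to each value and subtracting 1 gave whole numbers within a relative distance of 3.47e-06, so counts had been rounded. Estimated counts share reads between similar transcripts. At low counts a log2 difference is smaller than the true change.

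Of 87 rats in the labels, the authors removed 6 (3 low read counts, 2 expression outliers, 1 genotype mismatch) and exchanged 2 labels, and 81 were used. Sex and batch came from the labels. Sex, batch and their interaction were tested with limma 3.58.1 (R 4.3.3, eBayes with trend) in 80 rats over all 17512 genes, with Benjamini-Hochberg adjustment at 0.05. On simulated data with 200 genes changed by 0.5, 95% were recovered for sex, with 2.56% false calls, and 95% for batch, with 7.32% false calls. The simulated residuals were independent between genes, without other batch or run differences, and the changed genes had a mean log2 of at least 5. These rates do not hold for *Prkcd*, whose residual SD of 0.73 is far above the median of 0.18 at its level. Depth was recovered from the spacing of low values, and of 40 simulated libraries 37 were resolved, 36 of them within 1% of the truth.

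Correlations between the 4 genes and with marker lists used residuals after sex and batch, with two-sided tests of 100000 permutations adjusted over 6 pairs of genes or 44 pairs of gene and marker list. A list score was the mean z score of its identified genes. Values of r for single genes had column run removed as well. Gene symbols of other genes came from identifier and name pairs in the study's supplementary tables, which named 3270 of the 17512 genes, mostly genes with a mapped expression locus, so each list is seen only in part. Certain other genes, some of them also left out of the names and lists, are not reported here. Named genes were the 4 genes, the 5 most and 2 least like each by r among named genes with a mean log2 of at least 5, up to 4 pathway genes in each direction by size among those past the threshold, and marker genes by abundance or r. Single marker genes beyond these were named as the identified part of their list. The genes and lists were chosen with earlier results of these data known. Promoters were matched by symbol in a RefSeq GRCr8 table. Alternatives covered the pseudocount (8), a filter on low values, ranks, recentering, covariates and leaving out each batch. Scripts ran in Python 3.11.15 (numpy 2.4.6, pandas 2.3.3, scipy 1.17.1), and plots were drawn in matplotlib 3.10.9.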

Additional observations from a re-analysis of the deposited data

How the results depend on the processing

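No paired analysis applied, because each sample was a separate animal. A rat's number follows accession order and marks no pairing. The sex test gave 7 genes in place of 23 with 20 expression components as covariates, and none of the 4 genes passed under any alternative run. When column run was added, batch called 6180 genes in place of 11444, *Pvalb* was not called (F = 1.99), and the difference of *Calb2* between batches 3 and 2 changed sign (-0.016). That model ties batches 2 and 3 to batches 4 and 6 only through 3 rats of batch 3. Without batch 3, F for *Pvalb* was 1.29. When the count of genes at 0 entered the model, 102 genes in place of 1754 differed between batches 6 and 4 within run 3 (*Prkcd* -0.51, not called), and 819 in place of 4020 between runs 2 and 1 within batch 3 (*Calb2* 0.35, not called). After removal of 20 components, no pair of the 4 genes passed: r was -0.19 for *Calb1* with *Pvalb*, 0.061 for *Calb2* with *Pvalb* and -0.18 for *Pvalb* with *Prkcd*. Without batch 2, *Calb1* with *Pvalb* was -0.078 and *Pvalb* with *Prkcd* -0.28. Without batch 3, *Calb2* with *Pvalb* was 0.25. With column run removed as well, 2 further pairs passed, *Calb2* with the medial habenula markers (-0.28, but -0.14 without the 2 farthest rats and rho -0.20 with a permutation adjusted p of 0.175) and *Prkcd* with the dentate granule markers (0.28). The cause was not tested in any of these cases. Of 264 pairwise batch differences under alternatives, 241 kept direction and call, 18 lost the call, 4 gained it and 1 changed sign. *Pvalb* gained the call for batch 4 minus 2 (-0.42) and batch 6 minus 2 (-0.57) with the mean of *Ptpn3* and *Ntng1* as a covariate. Depth before scaling is unknown for 13 rats, and marker lists with 1 or 2 identified genes rest on those genes.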
